A study of Mus musculus with 12 samples.

Results

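The heterogeneous nuclear ribonucleoproteins (Hnrnp genes) and the serine/arginine-rich splicing factors (Srsf genes) of the mouse superior mesenteric ganglion (SMG) are described here, cell class by cell class. The members were all rows of the gene tables whose symbol begins with Hnrnp, or with Srsf followed by a digit, after pseudogene and antisense symbols were left out. There were 31 such genes, 20 Hnrnp and 11 Srsf, of 32286 rows in all.

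Single-cell RNA sequencing had been performed on the SMG of 12 mice of the strain 129+Ter/SvJcl, 1 library per mouse. There was 1 wild-type (WT) mouse at 3 weeks of age, and there were 10 Th-MYCN+/- mice at 3 weeks and 1 Th-MYCN+/- mouse at 6 weeks. Th-MYCN+/- mice are hemizygous for a human MYCN transgene (H-MYCN) under a rat tyrosine hydroxylase promoter, which is active in sympathetic cells. In the study most of these mice, but not all, succumbed to tumors, with this ganglion as the main site of origin. The study described the neuroblasts at 3 weeks as pre-cancerous. The SMG of the 6-week-old mouse had been chosen for a tumor visible at dissection, so that age and tumor cannot be told apart in that animal, and a group of 1 mouse gives no estimate of the spread between mice.

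Hnrnp proteins coat nascent transcripts, and many of them repress exons by binding silencer elements, while others act in RNA export, stability and translation. Srsf proteins, also called SR proteins, carry an RNA-recognition domain and a tail rich in arginine and serine, bind exonic enhancers and recruit the core splicing machinery to nearby splice sites. Both families act on the choice of exons in a dose-dependent way, and several members limit their own level through exons that mark their transcripts for decay. MYC proteins, MYCN among them, are known to raise the transcription of several of these genes in tumor cells.

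Libraries held 1147771 to 6388765 unique molecular identifiers (UMIs, each standing for 1 captured transcript), and 12008 cells were kept, 522 to 1825 per mouse. Clusters were named from marker lists, which gave 2980 neuroblast-like cells, 2922 Schwann-like cells and 2716 ganglion-like cells. There were also 508 endothelial-like cells, 242 cells of the macrophage-like class, 43 NKT-like cells, 141 cells called fibroblast-like and 166 called myofibroblast-like, and 2290 cells stayed unnamed. The largest neuroblast-like cluster, of 1524 cells, was led by genes of the cell cycle (Hist1h2ap, Plk1, Nusap1). H-MYCN was at 0 UMIs in the cells of the WT mouse, a depth at which 3 UMIs would be 4.28 CPM (UMIs scaled to a total of 1000000), and at 8.54 to 428.3 CPM in the 3-week-old Th-MYCN+/- mice. The lowest of these was mouse 2, whose library stood apart: 82.4% of its cells were ganglion-like, only 43 were neuroblast-like and 9 Schwann-like, 38.6% of its UMIs lay in cells, and it supplied 87.7% of the largest ganglion-like cluster. In all, 93 cell barcodes occurred in more than 1 library, in 187 cells. Levels below are CPM of the summed UMIs of a class in a mouse, and class differences are within the 10 Th-MYCN+/- mice of 3 weeks unless another group is named.

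The promoters of 4 members are shown because they frame the results: Hnrnpa1 and Hnrnpab were among the leading genes in all comparisons of neuroblast-like cells with another class, and Hnrnpa3 and Hnrnpd hold the canonical E-box CACGTG that MYC proteins bind. The sequences are the 250 bases before the RefSeq start in the GRCm38.p6 build, on the strand of the gene, with the E-box in capitals. Hnrnpa1 lies at chr15:103240147-103240396 on the plus strand, Hnrnpab at chr11:51606882-51607131 on the minus strand, Hnrnpa3 at chr2:75659009-75659258 on the plus strand and Hnrnpd at chr5:99978939-99979188 on the minus strand.
Hnrnpa1: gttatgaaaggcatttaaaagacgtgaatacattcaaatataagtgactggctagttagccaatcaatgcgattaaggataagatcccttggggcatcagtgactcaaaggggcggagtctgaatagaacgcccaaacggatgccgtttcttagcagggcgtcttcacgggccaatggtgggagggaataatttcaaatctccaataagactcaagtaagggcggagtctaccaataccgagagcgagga
Hnrnpab: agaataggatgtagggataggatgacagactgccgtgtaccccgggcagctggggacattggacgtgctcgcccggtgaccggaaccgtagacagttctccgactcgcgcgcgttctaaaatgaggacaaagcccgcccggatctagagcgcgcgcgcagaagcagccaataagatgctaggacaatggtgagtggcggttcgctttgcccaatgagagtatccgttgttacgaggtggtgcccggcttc
Hnrnpa3: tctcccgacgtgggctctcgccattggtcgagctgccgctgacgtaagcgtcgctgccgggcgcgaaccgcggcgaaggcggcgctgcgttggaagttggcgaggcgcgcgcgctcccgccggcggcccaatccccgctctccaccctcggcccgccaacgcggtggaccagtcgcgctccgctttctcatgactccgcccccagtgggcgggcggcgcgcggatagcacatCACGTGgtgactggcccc
Hnrnpd: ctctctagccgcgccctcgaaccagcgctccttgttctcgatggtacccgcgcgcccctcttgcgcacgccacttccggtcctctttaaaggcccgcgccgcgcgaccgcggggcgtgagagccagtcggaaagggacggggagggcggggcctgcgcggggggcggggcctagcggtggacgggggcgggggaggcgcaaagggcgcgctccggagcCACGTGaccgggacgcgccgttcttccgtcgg

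The E-box began 18 bases before the start of Hnrnpa3 and 32 bases before that of Hnrnpd. Of the 41 promoters listed for 29 members, 3 held CACGTG (which reads the same on both strands), 7.32%, and the third belonged to 1 of the 4 starts of Hnrnpf. It was held by 6.02% of all 32851 promoters listed, so the share among the members was near that of all genes. The windows printed for Hnrnpa1 and Hnrnpab did not contain these 6 letters.

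Both families took a larger share of UMIs in neuroblast-like cells than in ganglion-like cells, the differentiated sympathetic neurons, and by mean level also than in the other named classes. Summed over the 20 genes, Hnrnp UMIs ranged over the 10 mice from 7456 to 12881 CPM in neuroblast-like cells, with a median of 10164, and from 1633 to 2792 CPM in ganglion-like cells, with a median of 2118. The ranges did not overlap. Mean levels were 10322 ± 1848 CPM in neuroblast-like cells, 2133 ± 373.7 in ganglion-like cells, 3559 ± 479.6 in Schwann-like cells, 3678 ± 563.8 in endothelial-like cells and 2634 ± 377.1 in macrophage-like cells (SD, n = 10 for each). Small classes were at 5138 ± 2334 CPM (myofibroblast-like, n = 9), 3230 ± 1010 (fibroblast-like, n = 9) and 4962 ± 616.5 (NKT-like, n = 2). The myofibroblast-like range overlapped the neuroblast-like one. In mouse 10 its 8 cells were at 9577 CPM, above the neuroblast-like 8346 CPM, and 45 of their 68 Hnrnp UMIs were those of Hnrnpc in 1 cell. Srsf ranges of these 2 classes overlapped too, with a myofibroblast-like mean of 1997 CPM.

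The 11 Srsf genes followed the same order of classes at the top. They ranged from 2475 to 4952 CPM in neuroblast-like cells, with a median of 4148, and from 998.8 to 1654 CPM in ganglion-like cells, with a median of 1165. Means were 4074 ± 686.8 CPM in neuroblast-like, 1224 ± 191.7 in ganglion-like, 1488 ± 200.3 in Schwann-like, 1698 ± 299.1 in endothelial-like and 1117 ± 278.6 in macrophage-like cells (SD, n = 10). The last 4 classes overlapped between mice. Together the 31 genes made up 1.44% ± 0.245 of all UMIs of neuroblast-like cells and 0.336% ± 0.0353 of those of ganglion-like cells (SD, n = 10).

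Within each mouse the neuroblast-like level was the higher one in 10 of 10 mice against each of 3 classes. The mean fold for Hnrnp was 4.83 against ganglion-like, 2.88 against Schwann-like and 2.79 against endothelial-like cells, and for Srsf it was 3.31, 2.72 and 2.39. The ratio of Hnrnp to Srsf UMIs was 2.55 ± 0.278 in neuroblast-like and 1.79 ± 0.472 in ganglion-like cells (SD, n = 10), higher in neuroblast-like cells in 10 of 10 mice although the ranges overlapped. Against Schwann-like cells (2.46 ± 0.585) the ratio was higher in 5 of 10 mice. No test was made of sums over the members.

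**Figure D1:**
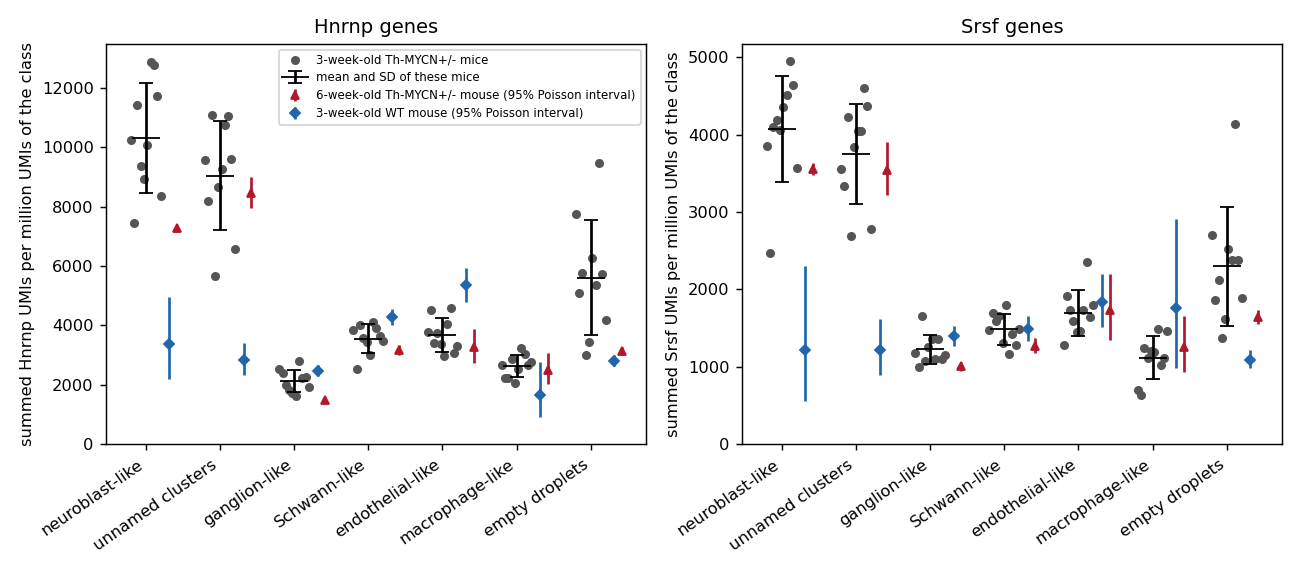
Summed Hnrnp (left) and Srsf (right) UMIs as CPM, by cell class and in droplets without a cell. Grey points are the 3-week-old Th-MYCN+/- mice with their mean and SD, red triangles the 6-week-old Th-MYCN+/- mouse and blue diamonds the WT mouse, both with 95% Poisson intervals. The neuroblast-like points (Hnrnp 7456 to 12881) lie above all ganglion-like points (1633 to 2792).

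The unnamed cells stood close to the neuroblast-like ones. They came almost wholly from 1 cluster of 2263 cells with a median of 488 UMIs. Its leading genes were Rfc4 and Mcm7, of DNA replication, and Cks2, of the cell cycle. Of the 12 neuroblast markers, 3 were both raised 1.5-fold and detected in at least 10% of the cluster's cells, as naming required. The 12 markers summed to a median of 20046 CPM in unnamed cells (14588 to 21541), 20841 in neuroblast-like cells (15676 to 25652) and 7833 in ganglion-like cells (4743 to 9566). Their summed Hnrnp level was 9042 ± 1833 CPM and their Srsf level 3749 ± 647.9 CPM (SD, n = 10). The mean fold of neuroblast-like over unnamed cells was 1.15 for Hnrnp (higher in 9 of 10 mice) and 1.09 for Srsf (8 of 10). When log-normalized counts were clustered instead, no cell stayed unnamed and the neuroblast-like class grew to 5080 cells. That clustering also regressed out nothing, while the main one regressed out depth and cell-cycle scores among others. Which of these differences mattered was not tested.

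Depth and free RNA also differed between classes. Over the pooled cells the median cell held 4384 UMIs in the neuroblast-like class, 1154 in the ganglion-like, 971.5 in the Schwann-like and 1168 in the endothelial-like class. The ganglion-like median rests largely on mouse 2, which gave 1503 of these cells. Within single mice the order of these 2 classes by mean UMIs per cell varied. Mean Hnrnp UMIs per cell had a median over mice of 52.1 in neuroblast-like and 9.68 in ganglion-like cells. Droplets without a cell held 2996 to 9488 CPM of Hnrnp, above every ganglion-like value, and the share of class UMIs estimated as free RNA had a median of 23.3% in ganglion-like cells (10.1% to 50%), 4.73% in neuroblast-like (2.06% to 50%), 3.67% in Schwann-like (1.63% to 17.95%) and 1.11% in endothelial-like cells (0% to 8.30%). Shares were held at a ceiling of 50%, which mice 6 and 8 reached in ganglion-like cells. The neuroblast-like share of 50% was that of mouse 2, which also had the lowest neuroblast-like levels, 7456 CPM for Hnrnp and 2475 CPM for Srsf. With free RNA subtracted, the ganglion-like mean fell from 2133 to 1293 CPM for Hnrnp and from 1224 to 880.3 CPM for Srsf. With every cell thinned to 500 UMIs, all 20 members that could be tested were still higher in neuroblast-like than in ganglion-like cells.

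Between neuroblast-like and ganglion-like cells, UMIs were summed per mouse and class and tested by edgeR's quasi-likelihood test with the mouse as a block and Benjamini-Hochberg adjustment over 7150 genes. All 31 members passed the filter on low counts. Past the threshold, 30 were higher and 0 lower in neuroblast-like cells, where 37.4% of all genes tested were called higher and 30.8% lower, and 29 were higher by DESeq2. The median log2 fold change was 2.14 over the members and 0.12 over all genes tested, and 17 of the 31 members had ranges that did not overlap between the classes, against 9.93% of all genes in this direction and 9.45% in the other. Without mouse 2 the count was again 30.

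Values over the mice are given for the 6 members with the largest change. Hnrnpa1, a shuttling protein that represses exons and is the best known of the A/B group, was at 1039, 1320 and 1706 CPM (lowest, median and highest mouse) in neuroblast-like cells and at 143.6, 208.4 and 249.9 CPM in ganglion-like cells. The lowest neuroblast-like mouse lay above the highest ganglion-like one, and the log2 fold change was 2.75 ± 0.14 (SE, edgeR adjusted p = 2.041e-12). Hnrnpa2b1, its relative with roles in RNA transport and in reading methylated adenosine, ran from 1547 over 1848 to 2534 CPM against 158.3, 319 and 557.5 CPM, a log2 fold change of 2.65 ± 0.16 (edgeR adjusted p = 2.894e-11). These groups were separate as well.

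Hnrnpab, which binds AU-rich RNA and single-stranded DNA, ran from 305.6 over 703.4 to 845.7 CPM in neuroblast-like cells and from 73.72 over 104.8 to 162.2 CPM in ganglion-like cells. Its log2 fold change was 2.78 ± 0.16 (edgeR adjusted p = 1.022e-11), with no overlap. Hnrnpdl, the close relative of the RNA-decay factor Hnrnpd, ran from 366.7 over 420.8 to 534.2 CPM against 42.32, 67.02 and 158.4 CPM. Its classes were also apart, with a log2 fold change of 2.59 ± 0.18 (edgeR adjusted p = 1.182e-10).

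The largest fitted change was that of Hnrnph3, of the H/F group that binds runs of guanine. It ran from 152.8 over 347.5 to 865.3 CPM in neuroblast-like cells and from 40.03 over 51.87 to 64.68 CPM in ganglion-like cells, with no overlap and a log2 fold change of 2.85 ± 0.18 (edgeR adjusted p = 3.886e-11). Its highest value, in mouse 7, rested on 2 cells that held 125 and 138 of its 441 UMIs. With such extreme counts replaced by the level of the other cells the log2 fold change was 2.70. Hnrnpm, which binds GU-rich sequences, ran from 152.8 over 310.4 to 517.8 CPM against 35.7, 57.75 and 182.4 CPM, so that the classes overlapped in their extremes, with a log2 fold change of 2.53 ± 0.23 (edgeR adjusted p = 4.186e-09).

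The other Hnrnp genes rose by between 0.58 and 2.42 on the log2 scale. Hnrnpk, a poly(C)-binding protein, was at a median of 1595 CPM in neuroblast-like and 286.8 CPM in ganglion-like cells, and Hnrnpu, a nuclear scaffold protein, at 419.8 and 80.08 CPM, both without overlap. Hnrnpc, which binds uridine tracts, rose less (1.49 ± 0.17, edgeR adjusted p = 1.483e-07), and its highest ganglion-like value, 713 CPM, lay inside the neuroblast-like range of 411.6 to 871.2 CPM. Hnrnpul2 had the smallest change of the family (0.58 ± 0.20, edgeR adjusted p = 0.0125), with medians of 54.98 and 37.92 CPM.

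Among the SR proteins, Srsf1, the founding member, had a log2 fold change of 2.43 ± 0.20 (edgeR adjusted p = 8.796e-10), and Srsf2, known as SC35 and a marker of nuclear speckles, one of 2.24 ± 0.19 (edgeR adjusted p = 2.103e-09). Medians of Srsf1 were 258.2 CPM in neuroblast-like and 47.03 CPM in ganglion-like cells without overlap, and those of Srsf2 were 873.2 and 173.2 CPM with overlap. Srsf7 (2.18 ± 0.14) and Srsf3 (2.13 ± 0.15), the smallest SR protein, rose without overlap, with edgeR adjusted p-values of 5.256e-11 and 2.122e-10. Srsf5 was far from the rest of its family: medians were 305.1 and 198 CPM, and the log2 fold change of 0.46 ± 0.17 (edgeR adjusted p = 0.02405) lost its call under 5 of 12 alternatives, DESeq2 among them (adjusted p = 0.06823). Srsf12, which reached at most 26.36 CPM in neuroblast-like and 30.98 CPM in ganglion-like cells, was the member that did not pass (0.28 ± 0.24, edgeR adjusted p = 0.3113).

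**Figure D2:**
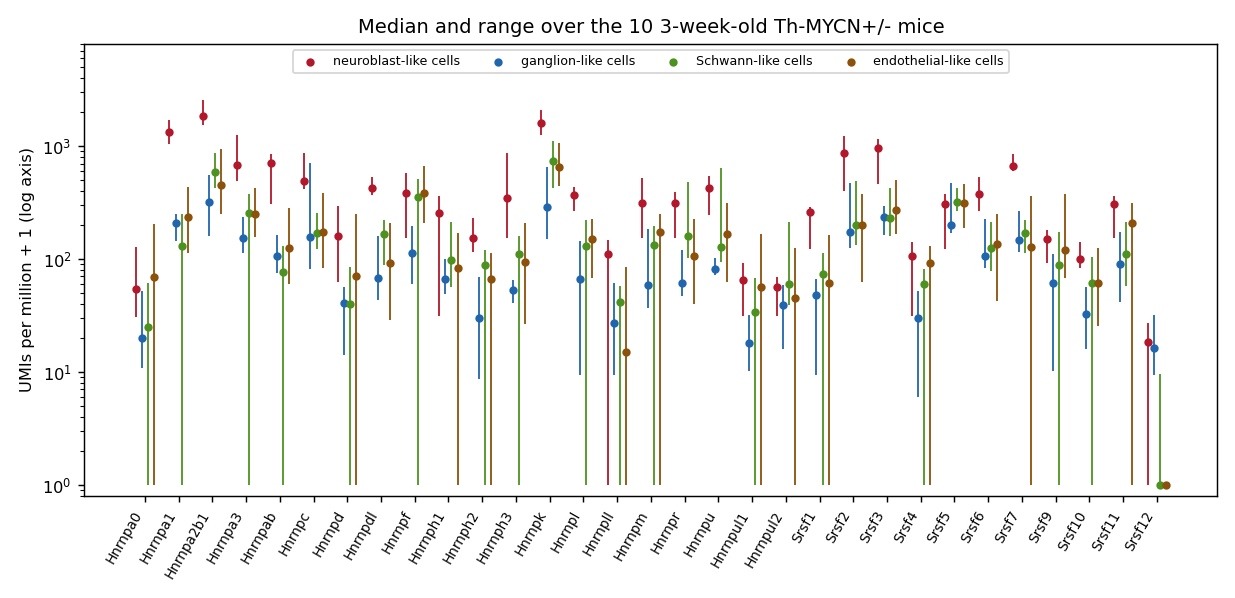
Level of each Hnrnp and Srsf gene in 4 cell classes, as CPM plus 1 on a log axis, in alphabetical order. Points are medians and lines the range over the 3-week-old Th-MYCN+/- mice (n = 10). By mean level 25 of the 31 genes were highest in neuroblast-like cells and 24 lowest in ganglion-like cells.

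Against Schwann-like cells, the glia of the ganglion, 26 of the 30 members tested were higher in neuroblast-like cells and 1 lower, where 37% of the 5542 genes tested were called higher and 32% lower by edgeR. The members' median log2 fold change was 1.16 and that of all genes 0.10, and 12 members did not overlap between the classes (15% of all genes in this direction, 6.66% in the other). Hnrnpa1 had the largest change, at 1039 to 1706 CPM in neuroblast-like and 0 to 249.8 CPM in Schwann-like cells, where its median was 130.6 CPM (2.92 ± 0.17, edgeR adjusted p = 1.494e-12). The value of 0 is that of mouse 2 with its 9 Schwann-like cells. Hnrnpab was at 305.6 to 845.7 against 0 to 128 CPM, with medians of 703.4 and 76.33 (2.87 ± 0.17, edgeR adjusted p = 3.238e-12), and Srsf3 at 458.4 to 1152 against 158.4 to 424.1 CPM, with medians of 956.6 and 229.5 (1.89 ± 0.14, edgeR adjusted p = 1.451e-10).

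Hnrnpf, Hnrnpul2 and Srsf9 did not pass in this comparison, with log2 fold changes of -0.05 ± 0.14, -0.32 ± 0.17 and 0.34 ± 0.22, and Srsf12 was too low to test. Hnrnpf, which shares the guanine-run binding of Hnrnph3, had nearly the same median in both classes, 380.1 and 355 CPM, with wide ranges. Srsf5 was lower in neuroblast-like cells (medians of 305.1 and 317.2 CPM, -0.33 ± 0.13, edgeR adjusted p = 0.02416), a call that was lost by DESeq2 (adjusted p = 0.2339), without the mouse as a block (edgeR adjusted p = 0.06061) and under 4 more of the alternatives.

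Against endothelial-like cells, 20 of the 27 members tested were higher in neuroblast-like cells and 1 lower, where 35.9% of 2138 genes were called higher and 29.6% lower. The members' median log2 fold change was 1.13 against 0.16 for all genes, and 12 members did not overlap (16.3% of all genes in this direction). The leading genes were Hnrnpab (medians of 703.4 and 124 CPM, 2.13 ± 0.22, edgeR adjusted p = 1.191e-07), Hnrnpa1 (1320 and 234 CPM, 2.03 ± 0.19, edgeR adjusted p = 1.899e-08) and Hnrnpll, a regulator of lymphocyte splicing (110.1 and 13.89 CPM, 1.97 ± 0.44, edgeR adjusted p = 0.0006425). Endothelial-like ranges were 59.59 to 283.8 CPM for Hnrnpab, 111.3 to 434.8 CPM for Hnrnpa1 and 0 to 83.48 CPM for Hnrnpll, and only the last overlapped the neuroblast-like range.

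Hnrnpd, Hnrnpf, Srsf4, Srsf9, Srsf10 and Srsf11 did not pass against endothelial-like cells, and Hnrnpa0, Hnrnpul1, Hnrnpul2 and Srsf12 were too low to test. Srsf4 was at medians of 104.8 and 90.92 CPM, a log2 fold change of 0.01 ± 0.26. Srsf5 was again the member called lower (-0.42 ± 0.18, edgeR adjusted p = 0.04341), with medians of 305.1 and 312.2 CPM and a higher endothelial-like value in 8 of 10 mice. Without mouse 2 this was -0.28 (edgeR adjusted p = 0.2666), and with no filter on low counts the sign turned to 0.37.

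**Figure D3:**
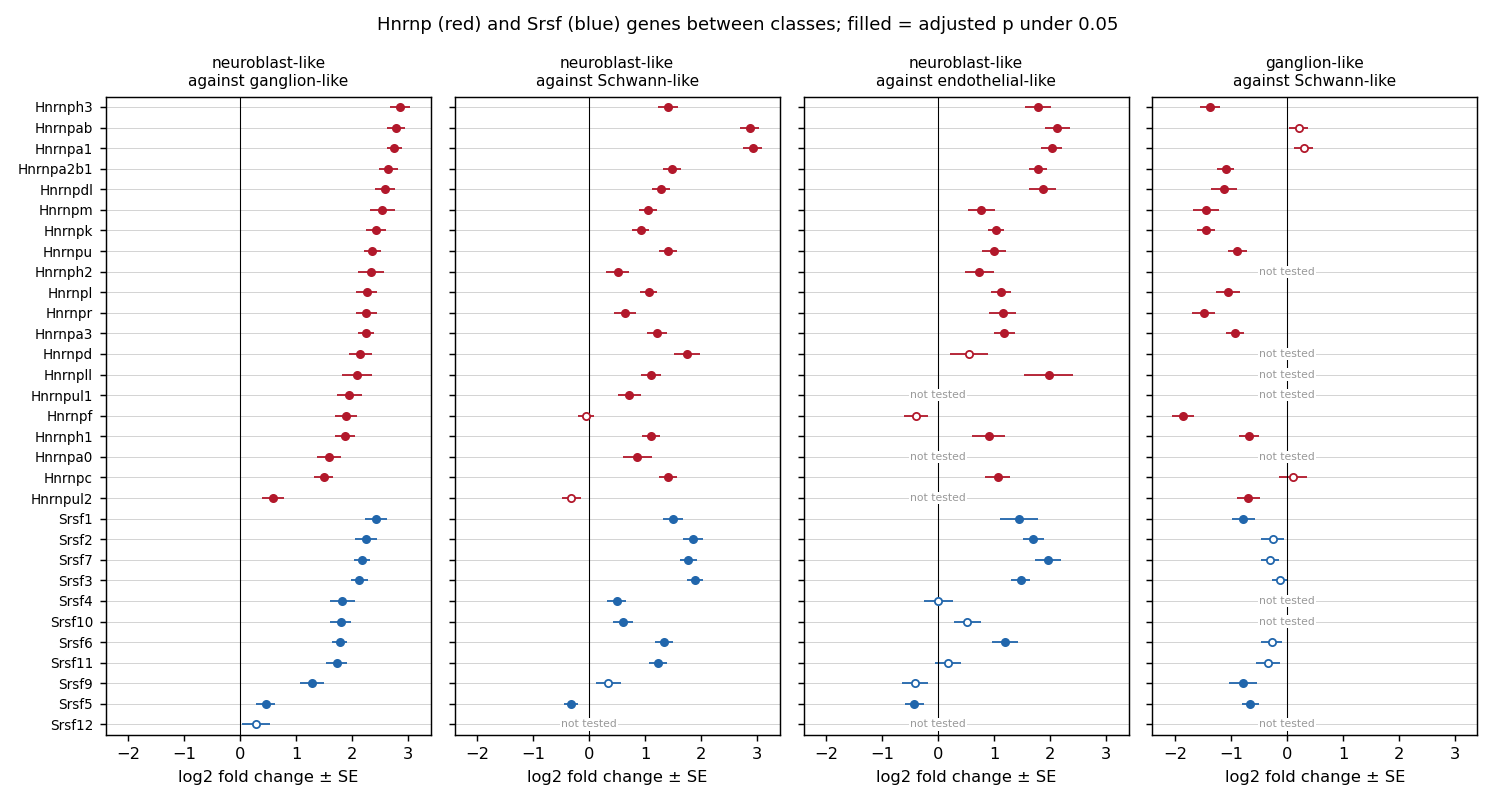
Log2 fold change with its SE for each Hnrnp (red) and Srsf (blue) gene in 4 comparisons of classes within the 3-week-old Th-MYCN+/- mice (n = 10), from edgeR. Filled points passed an adjusted p of 0.05. In the left panel every gene but Srsf12 is filled and to the right of 0, and in the right panel 15 genes are filled, all to the left.

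Ganglion-like cells were then set against Schwann-like cells, so that neurons and glia were compared without neuroblasts. Of 23 members tested, 15 were lower in ganglion-like cells and 0 higher, where 32% of 3163 genes were called lower and 38.8% higher (edgeR), and at an unadjusted p under 0.05 the counts were 12 Hnrnp and 3 Srsf genes. DESeq2 called 15 lower and 1 higher. The median log2 fold change was -0.78 over the members and 0.11 over all genes, and no member's ranges were separate, where 9.04% of all genes were separate in this direction and 15.7% in the other.

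Hnrnpf had the largest difference here, at 59.41 to 193.7 CPM in ganglion-like and 0 to 509.3 CPM in Schwann-like cells, with medians of 111.2 and 355 (-1.86 ± 0.20, edgeR adjusted p = 1.777e-08). Hnrnpr, a relative of Syncrip found in axons, was at medians of 59.75 and 158.2 CPM, with ranges of 46.48 to 120.1 and 100.5 to 476.6 (-1.48 ± 0.21, edgeR adjusted p = 1.269e-06). Hnrnpk was at medians of 286.8 and 739.1 CPM (-1.44 ± 0.16, edgeR adjusted p = 2.916e-08), with ranges of 150 to 648.6 and 424.1 to 1112.

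Hnrnph3 (-1.37 ± 0.18) and Hnrnpm (-1.44 ± 0.23) were also among the 15 lower genes. Hnrnpa1, Hnrnpab, Hnrnpc, Srsf2, Srsf3, Srsf6, Srsf7 and Srsf11 did not pass between ganglion-like and Schwann-like cells, Hnrnpa1 with a log2 fold change of 0.30 ± 0.17 and Srsf3 with one of -0.13 ± 0.14. Hnrnpd, Hnrnpa0, Hnrnph2, Hnrnpll, Hnrnpul1, Srsf4, Srsf10 and Srsf12 were too low to test. The share of free RNA given above, larger in ganglion-like than in Schwann-like cells, moves with this comparison. With it subtracted 10 of 20 members were lower.

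The genes that work with the 2 families were described by lists. Of the hnRNPs that carry other symbols, 7 of 7 tested were higher in neuroblast-like than in ganglion-like cells, with Rbmx (4.16 ± 0.28) and Ptbp1, a repressor of neuronal exons (3.28 ± 0.29), ahead, at edgeR adjusted p-values of 7.924e-11 and 3.881e-09. Rbmx was at a median of 188.9 CPM against 9.74 and Ptbp1 at 54.2 against 4.88. Among SR-related proteins 13 of 14 were higher, led by U2af2 (2.11 ± 0.21), which recognizes the polypyrimidine tract, Tra2b (2.10 ± 0.18) and Acin1 (1.85 ± 0.20). Of the kinases and importins that modify and carry SR proteins, 5 of 8 tested were higher, with Clk1 at 1.79 ± 0.31, Clk4 at 1.19 ± 0.20 and Srpk1 at 0.95 ± 0.16.

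The core snRNP proteins were higher in 12 of 12 cases, with Snrpg (2.66 ± 0.15), Snrpd1 (1.86 ± 0.15) and Snrpb (1.84 ± 0.14) in the lead, and the SF3 subunits of the U2 particle in 9 of 9, with Sf3b1 at 2.40 ± 0.22, Sf3a3 at 2.31 ± 0.21 and Sf3a2 at 2.00 ± 0.20. The list of neural splicing regulators was mixed: 7 of 14 tested were higher and 2 lower. Ptbp2, the neuronal relative of Ptbp1, rose (2.32 ± 0.21, medians of 149.6 and 30.34 CPM), as did Khdrbs3 (1.21 ± 0.17) and Elavl3 (1.07 ± 0.13), while Celf6 (-3.03 ± 0.20, medians of 31.91 and 302.3 CPM) and Celf4 (-0.55 ± 0.13) were lower in neuroblast-like cells. Median log2 fold changes were 1.75, 1.40, 0.75, 1.63, 1.73 and 0.37 for the 6 lists in this order, beside 2.14 for the members and 0.12 for all genes.

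The same lists were counted in the other comparisons, and several shares were near those of all genes. Higher in neuroblast-like than in Schwann-like cells were 4 of 7 hnRNPs with other symbols (Rbmx 1.05 ± 0.16), 10 of 14 SR-related proteins with Son lower (-0.41 ± 0.15), 3 of 6 kinases and importins, 12 of 12 core snRNP proteins and 5 of 9 SF3 subunits with Sf3a1 lower (-0.63 ± 0.17), where 37% of all genes were higher and 32% lower. All 9 neural splicing regulators tested were higher, led by Elavl4 (4.91 ± 0.29). Against endothelial-like cells the counts were 2 of 5, 5 of 11, 0 of 1, 9 of 12, 2 of 8 and 7 of 7 (35.9% of all genes), with Raly (-0.46 ± 0.19), Son (-0.91 ± 0.20) and Luc7l2 (-0.71 ± 0.28) lower. Between ganglion-like and Schwann-like cells 4 of 5, 8 of 10, 0 of 1, 5 of 12 and 5 of 5 were lower in ganglion-like cells, led by Rbmx (-3.18 ± 0.30), while 1 SR-related protein, 1 kinase and 8 of 8 neural regulators were higher (32% of all genes were lower and 38.8% higher).

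Within the neuroblast-like class, cells were ranked in each mouse by their UMIs in 97 cell-cycle genes after every cell had been thinned to 1000 UMIs, and the top of 3 equal ranges was compared with the bottom one. Of 2700 neuroblast-like cells 2600 held enough UMIs, and 9 mice had enough cells, without mouse 2. Cells of the top range carried a median over mice of 28 cell-cycle UMIs per 1000 and those of the bottom range 4.45, and before thinning they had 4711 and 4008 UMIs. Summed Hnrnp levels were 11975 ± 1442 CPM in the top and 9182 ± 1484 CPM in the bottom range, and Srsf levels 4677 ± 515.4 and 3510 ± 371.5 CPM (SD, n = 9). The mean folds were 1.31 and 1.33, each in 9 of 9 mice.

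Of 27 members tested in these ranges 15 were higher in cells with many cell-cycle UMIs and 0 lower, where 15.1% of 1849 genes were called higher and 12.7% lower. The cell-cycle genes used for the ranking were not left out of this background. No member had separate ranges, against 4.43% of all genes in this direction. DESeq2 and the edgeR fit without the mouse as a block called 11 higher. Hnrnph3 had the largest change, at 295.8, 515.9 and 2083 CPM against 108.1, 202.7 and 438.6 CPM (1.13 ± 0.21, edgeR adjusted p = 7.6e-05). It was higher in 8 of 9 mice, and 0.78 with extreme single-cell counts replaced. Hnrnph1, its relative, followed with medians of 276.2 and 189.2 CPM (0.76 ± 0.16, edgeR adjusted p = 0.000565) and Srsf1 with 298.3 and 181.3 CPM (0.71 ± 0.15, edgeR adjusted p = 0.0004633), higher in 8 and 9 of 9 mice.

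The other members called higher were Hnrnpa2b1, Hnrnpa3, Hnrnpab, Hnrnpd, Hnrnpdl, Hnrnpf, Hnrnpll, Hnrnpr, Hnrnpu, Srsf2, Srsf3 and Srsf7, by 0.40 to 0.70 on the log2 scale. Hnrnpa1, among the 3 genes with the largest change in each comparison of neuroblast-like cells with another class, was not past the threshold (1435 and 1351 CPM as medians, 0.14 ± 0.08), nor were Hnrnpc, Hnrnph2, Hnrnpk, Hnrnpl, Hnrnpm, Srsf4, Srsf5, Srsf6, Srsf9, Srsf10 and Srsf11. Of these, Hnrnpa1, Hnrnpk, Hnrnpm and Srsf10 passed with extreme single-cell counts replaced and also with cells not thinned in the sums. Hnrnpd, Hnrnpf and Hnrnpr lost their calls by DESeq2 and without the mouse as a block. Hnrnpf also lost its call without TMM and with extreme counts replaced. The call of Hnrnpll was lost by DESeq2 and that of Hnrnpab without the mouse as a block. Without the filter on low counts the calls of Hnrnpd, Hnrnpf, Hnrnpll and Hnrnpr were lost. Hnrnpa0, Hnrnpul1, Hnrnpul2 and Srsf12 were not tested. When the ranges were set by genes of DNA synthesis alone 6 members were higher. The calls of 9 were lost: Hnrnph3, Hnrnph1 and Srsf1, with the largest changes above, and Hnrnpab, Hnrnpd, Hnrnpdl, Hnrnpll, Hnrnpr and Srsf3. When sums used all UMIs of the same cells 26 of 30 were higher. Of the other lists 3 of 5 hnRNPs with other symbols, 2 of 12 SR-related proteins, 0 of 1 kinases and importins, 3 of 12 core snRNP proteins, 1 of 7 SF3 subunits and 0 of 8 neural regulators were higher, and Snrpb2 was lower (-0.66 ± 0.22).

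Neuroblast-like cells with at least 1 H-MYCN UMI after thinning to 1000 UMIs were compared with cells that had none, in the same 9 mice. No member passed of 27 tested, in either direction. At an unadjusted p under 0.05 there were 2, and DESeq2 called 0. Of all 2061 genes tested 0.0485% were called in each direction, 1 gene each. The transgene, by which the cells were split, was not left out of this background. Hnrnph2, on the X chromosome, was lower in cells with the transgene in 9 of 9 mice (medians of 96.77 and 191.8 CPM, -0.63 ± 0.20, edgeR adjusted p = 0.4367), and Hnrnpa1 had medians of 1422 and 1272 CPM (0.17 ± 0.07, edgeR adjusted p = 0.6557).

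Summed Hnrnp levels of these cells were 11207 ± 1940 and 10840 ± 1432 CPM, higher with the transgene in 5 of 9 mice, and Srsf levels 4236 ± 334.8 and 4291 ± 394.8 CPM (SD, n = 9). Cells with and without a transgene UMI had medians of 14.9 and 16.1 cell-cycle UMIs per 1000. A cell without an H-MYCN UMI at this depth may still carry the transcript, since those with one had a median over mice of 1.29 per 1000 UMIs. None of the other 6 lists had a gene past the threshold by edgeR, and at an unadjusted p under 0.05 there was 1 of 6 hnRNPs with other symbols, 1 of 12 SR-related proteins, 1 of 12 core snRNP proteins and 1 of 9 neural regulators.

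**Figure D4:**
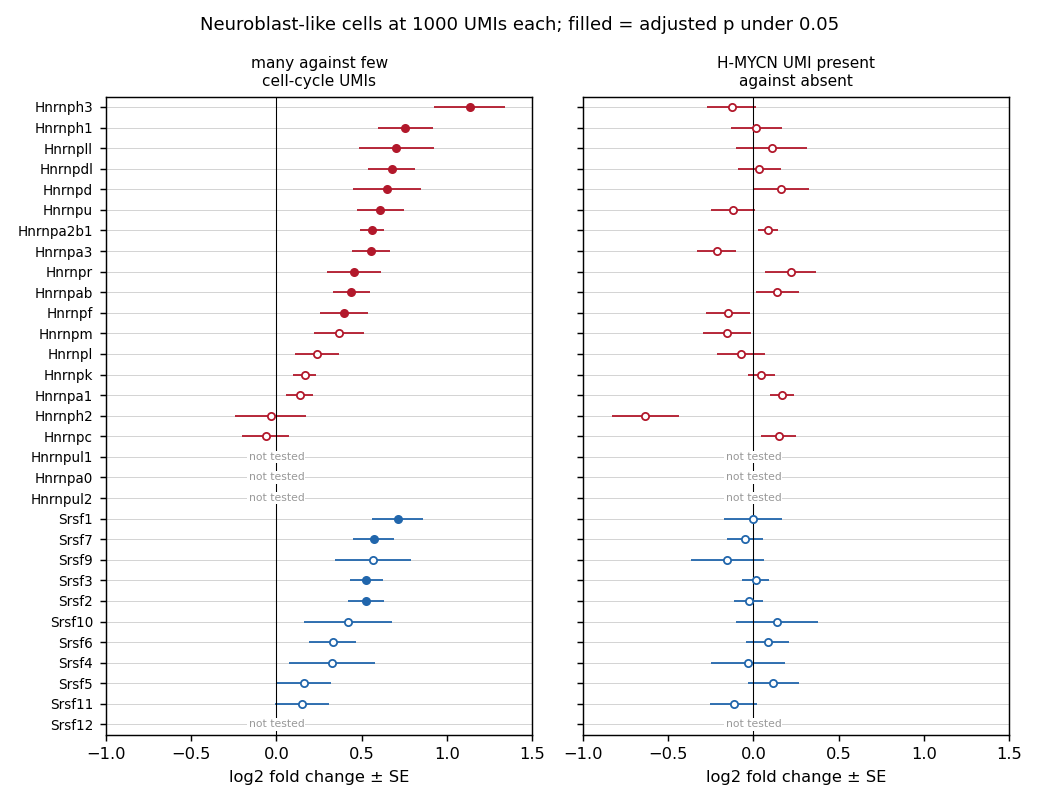
Log2 fold change with its SE for each Hnrnp (red) and Srsf (blue) gene between neuroblast-like cells with many and few cell-cycle UMIs (left) and with and without an H-MYCN UMI (right), in the 3-week-old Th-MYCN+/- mice (n = 9), from edgeR on cells thinned to 1000 UMIs. Filled points passed an adjusted p of 0.05, which were 15 on the left and none on the right.

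The WT mouse was set beside the range of the 10 Th-MYCN+/- mice of the same age in the classes it shared with them. A single mouse allows no test, and a gene was called where its level lay outside that range and was at least 1.5-fold from the median. In ganglion-like cells the summed levels of the WT mouse, 2478 CPM for Hnrnp (95% Poisson interval 2306 to 2660) and 1396 CPM for Srsf (1267 to 1534), lay within the ranges of the Th-MYCN+/- mice. With free RNA subtracted the difference from their mean log2 level went from 0.24 to 1.56 for Hnrnp and from 0.20 to 0.80 for Srsf. Mice 6 and 8 weigh on that mean, since their share of free RNA stood at the ceiling of 50%, against 5.43% in the WT mouse. Droplets without a cell held 6286 and 9488 CPM of Hnrnp in mice 6 and 8, and ganglion-like cells 1633 and 2231 CPM. How much of the change rests on these mice was not tested. In Schwann-like cells Hnrnp was at 4290 CPM (4030 to 4564), above all 10 mice (up to 4116), and Srsf at 1488 CPM (1336 to 1653) within their range. In endothelial-like cells Hnrnp was at 5354 CPM (4803 to 5951), again above all 10 (up to 4597), with Srsf at 1837 CPM (1520 to 2200) inside the range. These intervals cover counting error only. Of the 344 endothelial-like Hnrnp UMIs of the WT mouse 76 were those of Hnrnpf in 1 cell, and without them the sum would lie within the range. Of its 1009 Schwann-like Hnrnp UMIs 54 were those of Hnrnpdl in 1 cell. The highest Th-MYCN+/- mouse there, mouse 7, likewise had 71 of its 803 Hnrnp UMIs in 1 cell, as Hnrnpr.

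Single cells held many of the UMIs of 2 genes. In the WT endothelial-like class 76 of 116 UMIs of Hnrnpf lay in 1 cell, and in its Schwann-like class 54 of 89 UMIs of Hnrnpdl did. With such counts replaced Hnrnpf went from 1806 to 653.3 CPM (3-week-old Th-MYCN+/- mice up to 667.8) and Hnrnpdl from 378.4 to 155.7 CPM (up to 223.2), and the calls of both as higher were lost. The other calls were Hnrnpd higher (83.99 CPM against a median of 39.43) and Hnrnph3 lower (32.31 against 51.87) in ganglion-like cells, where the same replacement gave 4 higher calls (Hnrnpd, Srsf9, Srsf5 and Hnrnpa1) in place of 1, and Srsf5 higher (560.3 against 312.2) and Srsf3 lower (155.6 against 270.1) in endothelial-like cells. Of 26, 24 and 12 members with enough expected UMIs in Schwann-like, ganglion-like and endothelial-like cells, 1, 1 and 2 were called higher and 0, 1 and 1 lower, where 4.87%, 5.67% and 8.84% of all genes were called higher and 2.15%, 5.09% and 6.44% lower. The WT mouse had 23 neuroblast-like cells with 25 Hnrnp UMIs, too few to describe by gene.

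The SMG of the 6-week-old Th-MYCN+/- mouse had lower Hnrnp levels than any 3-week-old one in 2 classes. In its 257 neuroblast-like cells summed Hnrnp was 7267 CPM (95% Poisson interval 7154 to 7381), below all 10 mice of 3 weeks (7456 to 12881, or from 8346 without mouse 2), and Srsf was 3554 CPM (3475 to 3634), above 1 of them. In ganglion-like cells Hnrnp was at 1482 CPM (1412 to 1555), below all 10 (from 1633), and Srsf at 1007 CPM (948.9 to 1067), above 1 of them. With free RNA subtracted, Hnrnp in ganglion-like cells lay 0.41 above the mean log2 level of the 10 mice. Mice 6 and 8 weigh on that mean, since their share of free RNA stood at the ceiling of 50%. Droplets without a cell held 6286 and 9488 CPM of Hnrnp in these mice, and ganglion-like cells 1633 and 2231 CPM. A mean of this kind does not show whether the order against single mice changed. In Schwann-like cells both families lay within the range (3174 and 1272 CPM).

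By gene, 29 of 31 members were below the 3-week-old median in neuroblast-like cells, as were 57.4% of the 9412 genes with enough UMIs. Called lower were Hnrnpul1 (29.92 CPM against a median of 63.64), Hnrnpl, which binds CA repeats (204.8 against 370.8), and Hnrnpk (1061 against 1595), and none was called higher, where 3.67% of 9412 genes were called lower and 5.21% higher. With extreme single-cell counts replaced Hnrnpk was no longer called. In ganglion-like cells Hnrnpu, Hnrnpa3 and Srsf6 were called lower of 31 members (2.08% of all genes), and in Schwann-like cells Srsf6 and Hnrnpul2 of 30 (0.821% of all genes), with no member called higher (2.87% and 2.76% of all genes). Hnrnpa3 in ganglion-like cells was at 80.63 CPM against a median of 151.8, and Srsf6 in Schwann-like cells at 71.49 CPM against 123.7.

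**Figure D5:**
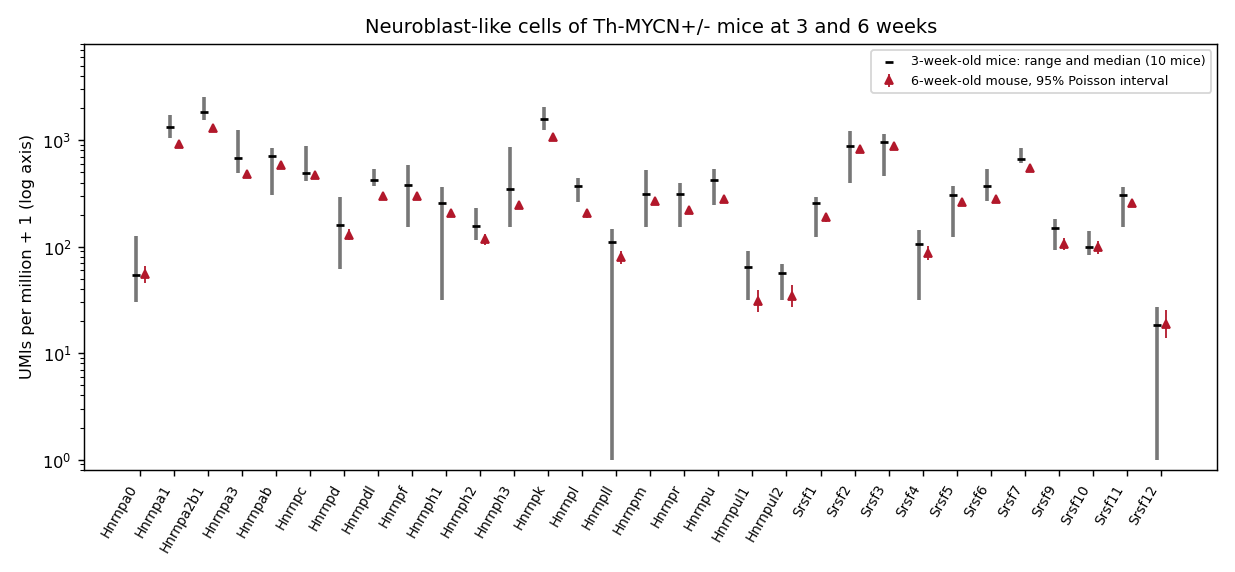
Level of each Hnrnp and Srsf gene in neuroblast-like cells, as CPM plus 1 on a log axis. Grey lines and dashes are the range and median of the 3-week-old Th-MYCN+/- mice (n = 10), red triangles the 6-week-old mouse with its 95% Poisson interval. The triangles of 29 of 31 genes lie below the median, as do 57.4% of all genes with enough UMIs.

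The position of the genes limits what some of these counts can tell. Exons of Hnrnpm overlap those of March2 on the same strand, and exons of 10 members overlap a gene on the opposite strand. For 3 members (Hnrnpa3, Hnrnpll and Srsf5) a run of 60 bases near the transcript end also occurs in another gene of the table, and for 11 it occurs in a gene outside the table, with 35 such genes for Hnrnpa3 and 9 for Hnrnpa1. How reads from such copies were assigned was not tested. The genes lie on many chromosomes (Hnrnpa1 at chr15:103240432-103246692, Hnrnpab at chr11:51600100-51606847, Hnrnph3 at chr10:63014664-63024217, Srsf3 at chr17:29032628-29043373 in GRCm38 with GENCODE vM21).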

How the data were processed

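Gene tables of the 12 libraries held raw UMI counts per gene and barcode, deposited by the authors and not normalized. Cell Ranger (3.0.2 in the matrix headers), Seurat and the build mm10 are named in the submitters' processing notes, and a row for the human transgene had been added to the mouse genes. No columns of comparisons made by the authors were used.

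Barcodes were called as cells by EmptyDrops (droplets under 100 UMIs as background, 10000 draws, FDR 0.01) and kept with at least 200 genes, at most 10% mitochondrial and at most 60% ribosomal UMIs. Cells were clustered in Seurat 5.3.0 with sctransform 0.4.2 (2000 variable genes, 30 components, resolution 0.5), leaving out 104 genes, among them the members, the other lists and the transgene. Gene and UMI number, mitochondrial and ribosomal shares and cell-cycle scores were regressed out. The alternative clustering of log-normalized counts had no such regression. A cluster was named where at least 50% of a class's markers, and no fewer than 3, were raised 1.5-fold. Each such marker also had to be detected in at least 10% of the cluster's cells. No doublet caller was run. The names are rebuilt here and may differ from the study's.

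UMIs were summed per mouse and class (at least 5 cells) and tested by edgeR 4.0.16 (quasi-likelihood, TMM, R 4.3.3) with the mouse as a block and a threshold of 0.05 after Benjamini-Hochberg adjustment over all genes tested. Both sums of a pair come from the same mouse and library, which is what pairs them. Their deviations from the class means correlated by -0.0069 to 0.27 for neuroblast-like and ganglion-like cells. DESeq2 1.42.0 was an alternative. On simulated counts for that comparison, 167 of 167 genes changed by 1.5 on the log2 scale were recovered with 10 false calls among 7021 genes. Groups of 1 mouse have Poisson intervals and no test. Intervals cover counting error only.

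Values are written out for the 6 members with the largest change in each direction between neuroblast-like and ganglion-like cells, for the 3 largest in each other comparison and for up to 3 genes of each other list. The values of 1 listed gene are not reported here. Other members are given by range or named as not past the threshold, and Hnrnpk, Hnrnpu, Hnrnpc, Hnrnpul2 and further Srsf genes were chosen for mention after their values were seen. The members and lists were chosen with earlier results of these data known. The replacement of extreme single-cell counts was added after seeing the data.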

Additional observations from a re-analysis of the deposited data

Results flagged for a closer look

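In 36 groups of 10 mice the gap between the most extreme mouse and its neighbour was compared with the range of the group (critical value 0.466), and 4 groups stood out, where chance gives about 1 in 20. Hnrnph3 in neuroblast-like cells of mouse 7 was at 865.3 CPM (median 347.5, gap over range 0.602), and 388.3 CPM with extreme single-cell counts replaced. Hnrnpab in endothelial-like cells of mouse 3 was at 283.8 CPM (median 124, 0.521). Hnrnpm in ganglion-like cells of mouse 1 was at 182.4 CPM (median 57.75, 0.764). Srsf5 in neuroblast-like cells of mouse 2, the library with 43 such cells, was at 122.2 CPM (median 305.1, 0.479). Their causes were not tested.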

How the results depend on the processing

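Of the counts and levels that answer a comparison, 193 kept their direction and side of the threshold under an alternative, 17 became weaker, 7 stronger and 11 moved, and for single members the numbers were 1607 unchanged, 57 weaker, 39 stronger and 1 reversed. The reversal was Srsf5 between neuroblast-like and endothelial-like cells, at 0.37 without the filter on low counts (edgeR adjusted p = 0.2693). The single member lower in neuroblast-like than in Schwann-like cells became 0 by DESeq2, without TMM, without the filter, without the mouse as a replicate block, with free RNA subtracted and with the strict cell filter (at least 500 genes, at most 5% mitochondrial UMIs), and 2 without the 5% of cells with most UMIs. Against endothelial-like cells it became 0 under the same 6 settings, without replicate 2 and thinned to 500 UMIs, where 10 of 11 members tested were higher in place of 20. Between ganglion-like and Schwann-like cells the higher count went from 0 to 1 by DESeq2, without TMM and with log-normalized clustering, and to 2 without the filter and without the 5% of cells with most UMIs, and the lower count from 15 to 4 of 7 tested when thinned. Members higher with many cell-cycle UMIs went from 15 to 26 of 30 without thinning and to 6 with DNA-synthesis genes alone. Without the replicate block 11 were called there, and leaving out the block moved no count of members by over 1.5 times other than the changes from 1 to 0 given above. A minimum of 10 cells per sum left the same mice in the neuroblast-like against ganglion-like comparison and in those within neuroblast-like cells, and the latter did not include mouse 2, so that no separate values exist for these. Free RNA subtraction took ganglion-like levels from 2133 to 1293 CPM (Hnrnp) and from 1224 to 880.3 CPM (Srsf). In mice 6 and 8 the share subtracted there stood at its ceiling of 50%, which weighs on the mean log2 levels used below. The log2 difference of the WT mouse from the 3-week-old mean went from 0.24 to 1.56 (Hnrnp) and from 0.20 to 0.80 (Srsf) in ganglion-like cells with free RNA subtracted, and for endothelial-like Hnrnp from 0.56 to 0.20 with the strict filter, 1.08 thinned and 0.21 with extreme counts replaced. For the 6-week-old mouse it went from -0.48 to -0.21 (neuroblast-like Hnrnp) with log-normalized clustering, and in ganglion-like cells from -0.50 to 0.41 with free RNA subtracted and -0.16 thinned (Hnrnp) and from -0.27 to 0.088 with free RNA subtracted (Srsf). Without TMM the median of all genes moved from 0.10 to 0.33, 0.16 to 0.39 and 0.11 to 0.23 against Schwann-like cells, against endothelial-like cells and between ganglion-like and Schwann-like cells, with 45.7%, 44.9% and 43.7% of genes called higher and 27%, 25.6% and 28.7% lower. The cause of these changes was not tested. Single mice in the WT and 6-week groups limit those comparisons to values, and the 43 neuroblast-like and 9 Schwann-like cells of mouse 2 limit its sums.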

Other observations

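Single barcodes held unusually many UMIs of 1 gene. Counting entries of at least 20 UMIs and over 10 times the level of the class, the members had 144, with 2.32% of their UMIs, and all genes had 13757, with 2.04% of theirs. With these counts replaced, 4 members (Hnrnpd, Srsf9, Srsf5 and Hnrnpa1) in place of 1 were called higher in ganglion-like cells of the WT mouse and 18 in place of 15 were higher in neuroblast-like cells with many cell-cycle UMIs.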
